A study of Rattus norvegicus with 16 samples.

Results

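The genes described here take up, carry, store, release and sense iron, and they were followed in the hippocampus of rats after iron had been infused into the amygdala. The 10 genes were Hmox1, Tfrc, Tf, Fth1, Ftl1, Slc40a1, Slc11a2, Cp, Aco1 and Ireb2. They were given by symbol, with no measured value in the rule, and each was read from the brightest probe whose RefSeq accession belongs to the symbol, brightness being the mean processed signal over the 16 arrays. A probe was found for 9 of the 10, out of 26564 genes tested. Tfrc, the receptor that takes up transferrin, was not analysed here. All 9 probes were marked well above background on all 16 arrays, that is on 4 of 4 arrays in each group, and none of their spots was marked saturated. Their mean processed signals ran from 21.8 units for Ireb2 and 57.6 for Cp to 49277 for Fth1 and 64156 for Ftl1.

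The rats were male Wistar, had surgery at 5 weeks of age and carried a guide cannula aimed at the right amygdala, which applied to controls and iron-infused animals alike. The 4 control rats received 1 µl of saline at pH 2.2 and were killed 15 days later. The Fe rats received 1 µl of 100 mM FeCl3 in saline of the same pH and were killed after 5, 15 or 30 days, with 4 rats at each time. RNA came from the whole right hippocampus, on the injected side but not the injected structure itself, and 1 Agilent 1-colour array was used per rat. The Fe rats had recurrent seizures per the series text, so iron and seizures came together in every Fe group. The day 5 and day 30 groups differed from the controls also in age and in time since infusion.

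Iron salts placed in the brain are used to model posttraumatic epilepsy, in which iron from shed blood reaches the tissue. Cells take up iron bound to transferrin, move it out of endosomes through the transporter encoded by Slc11a2, store it in ferritin shells built of the Fth1 and Ftl1 chains, and release it through ferroportin, encoded by Slc40a1, with the help of ferroxidases such as ceruloplasmin. The iron regulatory proteins encoded by Aco1 and Ireb2 bind hairpins in the messages of several of these genes when iron is scarce. Through them iron sets how much ferritin is translated and how stable the receptor message is, and an array reads only the amount of message.

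All levels below are log2 processed signals relative to the 75th percentile of the same array, so that 0 is the signal of that percentile and a step of 1 is a doubling. Differences are Fe minus control on that scale, from a limma model of all 16 arrays, with their standard error (SE, n = 4 per group) and a p adjusted over all 26564 genes by Benjamini and Hochberg. A gene was called at an adjusted p under 0.05. The tissue was bulk, in which fewer cells of a type and less RNA per cell cannot be told apart.

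At this threshold limma called 0 of the 9 genes at day 5, 0 at day 15 and 0 at day 30, and the same fits called 0%, 0% and 0.00753% of all genes. Also 0 of 9 were called between Fe days, with all 12 Fe rats against the controls, or by the F-test over the 4 groups, where 0% of all genes were called. At an unadjusted p under 0.05, 1 of the 9, Slc11a2, was lower at day 5, against 6.28% of all genes, and 0 were higher, against 4.06%. At day 15 these counts were 0 lower and 0 higher, against 6.32% and 5.17%. At day 30 they were 1 lower, again Slc11a2, and 0 higher, against 4.65% and 3.12%. At day 5, 2 of the 9 genes lay wholly above the controls and 1 wholly below, at day 15 1 and 0, and at day 30 0 and 0. The same was so for 2.75% and 5.09% of all genes at day 5, 4.11% and 5.72% at day 15, and 2.62% and 3.62% at day 30. The differences were above 0 for 6, 7 and 8 of the 9 genes at days 5, 15 and 30, against 45.8%, 50.3% and 46.6% of all genes, and the 3 comparisons share their controls. With normexp background correction the shares of all genes above 0 were 29.6%, 43.1% and 36.8%, and 5, 6 and 7 of the 9 genes were. The median difference of the 9 genes was 0.087, 0.14 and 0.092, and that of all genes was −0.016, 0.0014 and −0.013.

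**Figure D1:**
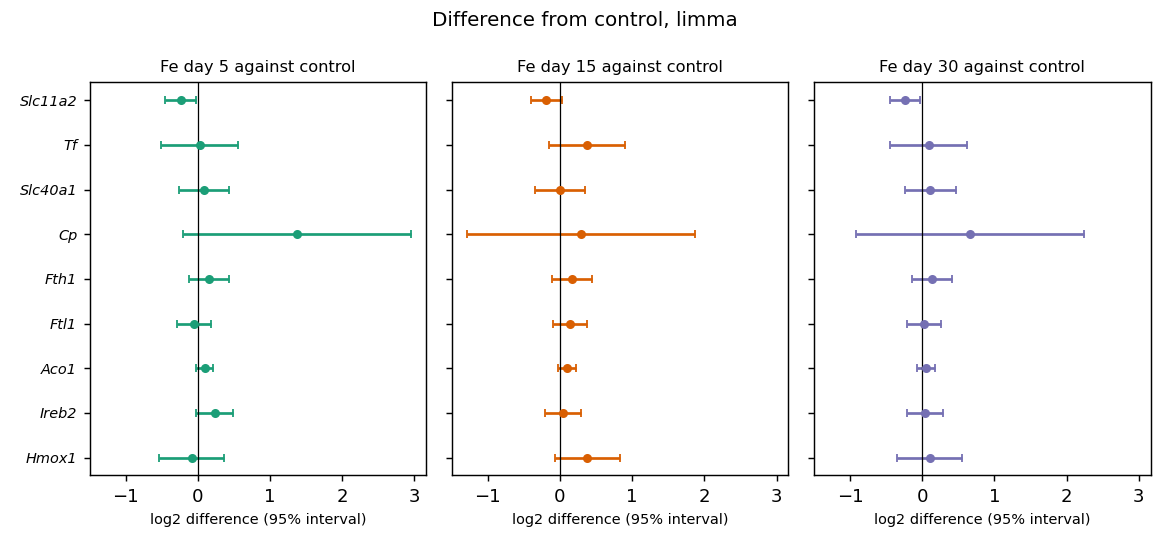
Difference of each Fe group from control in log2 signal, 1 row per gene and 1 panel per day, as points with 95% intervals from limma (n = 4 per group). The intervals of Slc11a2 lie below 0 at days 5 and 30 before adjustment over all genes, and those of Cp are the widest, from −0.20 to 2.95 at day 5.

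The arrays were alike in depth and unlike in cell type markers. The 75th percentiles lay between 553 and 924 units of processed signal, and 74.2% to 81.6% of transcript spots were well above background. Neuronal and astrocytic markers passed the filter on dim probes for 8 of 10 listed genes each, while genes of single hippocampal fields were not among the lists. A marker score, the median of a list's log2 signals each minus its control mean, differed between arrays. Choroid plexus scores (8 of 12 markers measured) were 1.77 in Fe day 5 replicate 2, 3.59 in Fe day 5 replicate 3 and 7.13 in Fe day 30 replicate 3, against −0.40 to 0.52 in the controls. Scores of meninges and fibroblasts (11 of 13 measured) were 4.53, 2.64 and 3.16 in the same arrays, against −0.074 to 0.027 in the controls. Choroid plexus scores were also above the controls in Fe day 5 replicate 1 (0.87), Fe day 15 replicates 3 and 4 (0.70 and 0.97) and Fe day 30 replicate 4 (1.01). Meninges scores of the other Fe arrays were 0.069 to 0.81, apart from −0.086 in Fe day 30 replicate 4. Fits without the 3 arrays thus still held arrays above the controls in these scores. Scores of microglia and macrophages (15 of 16 measured) were 0.99 in Fe day 15 replicate 4 and 0.95 in Fe day 30 replicate 3, and between −0.33 and 0.21 in the other 14 arrays. Differences that turned or moved by over 1.5 times without these arrays are given with and without them. Blood cell scores (7 of 10 markers measured) were −0.26 to 0.13 in controls. They were above 1 in 6 Fe arrays, namely 1.96 and 1.30 in Fe day 5 replicates 2 and 4, 1.01, 1.16 and 1.48 in Fe day 15 replicates 2, 3 and 4, and 1.79 in Fe day 30 replicate 3, and at most 0.40 in the other 6. All 7 blood markers were above control on each Fe day, with 0 called, and the part of blood in the values below was not tested. All controls and 3 arrays of day 5 held the same position on their slides, and no array of days 15 and 30 did, so that position and group cannot be told apart on those days.

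The transporter gene Slc11a2 read below every control in 10 of 12 Fe rats and above every control in 0. The share of all genes with such a count was not computed. Its product, the divalent metal transporter DMT1, carries ferrous iron across the membranes of endosomes and, in the gut, into the cell. Windows on the build GRCr8 were available for 2 of its start sites, both inside its RefSeq span, chr7:133381878-133429921. No window was available for the upstream end of that span. The sequences before both are shown because this gene had the most Fe values below the controls. Each is 250 bases, written 5′ to 3′ on the strand of the gene and ending at the base before the start, with matches to GGGCGG or its reverse complement CCGCCC in capitals.
Slc11a2 start 1, chr7:133417789-133418038, minus strand: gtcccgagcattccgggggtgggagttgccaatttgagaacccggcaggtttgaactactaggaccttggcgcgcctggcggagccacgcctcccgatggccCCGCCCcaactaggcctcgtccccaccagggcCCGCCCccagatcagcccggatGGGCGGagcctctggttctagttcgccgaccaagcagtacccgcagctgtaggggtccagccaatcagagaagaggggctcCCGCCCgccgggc
Slc11a2 start 2, chr7:133418940-133419189, minus strand: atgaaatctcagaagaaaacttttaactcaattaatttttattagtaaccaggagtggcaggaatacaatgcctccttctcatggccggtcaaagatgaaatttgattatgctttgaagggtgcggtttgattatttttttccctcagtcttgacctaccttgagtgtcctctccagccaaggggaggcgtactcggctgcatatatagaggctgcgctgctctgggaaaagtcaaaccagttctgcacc
The first window held 4 matches, whose first bases were at −148, −116, −94 and −13 from the start, and the second held 0. Of the 33469 windows of this length in the RefSeq table, 30.5% held a match. A match describes the letters alone.

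Slc11a2 read 1.27, 1.49, 1.26 and 1.26 in control replicates 1 to 4. At day 5 it read 1.00, 0.95, 1.19 and 1.20, at day 15 1.29, 1.02, 1.23 and 1.00, and at day 30 1.00, 0.94, 1.13 and 1.27. All 4 arrays of day 5, 3 of day 15 and 3 of day 30 were below the lowest control, which made 10 of 12, and the remaining 2 were inside the control range. The controls and day 5 did not overlap.

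The differences of Slc11a2 were −0.24 at day 5 (SE 0.098, adjusted p = 0.473), −0.19 at day 15 (adjusted p = 0.477) and −0.24 at day 30 (adjusted p = 0.633), which is 1.18-fold, 1.14-fold and 1.18-fold lower. The mean of the 3 Fe groups differed from control by −0.22 (SE 0.080, unadjusted p = 0.0155, adjusted p = 0.335), a comparison in which 7.81% of all genes were lower at an unadjusted p under 0.05. The group means in order were 1.09 at day 30, 1.09 at day 5, 1.13 at day 15 and 1.32 in control. The 3 Fe means lay within the spread of their replicates (SD 0.13 to 0.15) of one another. Control replicate 2 stood above the other controls, and without it the differences at days 5, 15 and 30 were −0.18, −0.13 and −0.18. With a block for slide the day 5 difference was −0.085 (adjusted p = 0.916). Day 5 shared a slide with a control in 1 rat, which differed from it by −0.077. On slides with a control the 3 rats of day 15 differed from it by −0.20, −0.24 and −0.033, and the 2 rats of day 30 by −0.36 and 0.0060.

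Transferrin, encoded by Tf, carries ferric iron in plasma and interstitial fluid, and in brain tissue oligodendrocytes are a main source of its message. Tf read 5.02, 4.69, 5.08 and 4.62 in controls, 4.79, 4.21, 5.15 and 5.38 at day 5, 5.48, 4.85, 5.42 and 5.17 at day 15, and 4.64, 4.76, 5.55 and 4.84 at day 30. Each Fe group overlapped the controls, with 3 of 4 rats above the highest control at day 15. The differences were 0.026, 0.38 and 0.092 (SE 0.25; adjusted p = 0.979, 0.567 and 0.929), and the interval at day 15 ran from −0.15 to 0.91. The sign at day 5 turned when control replicate 2 (−0.028), control replicate 4 (−0.051), the third rat of day 5 (−0.063) or the fourth (−0.14) was left out, and at day 30 when the third rat of that group was (−0.11). Without Fe day 5 replicates 2 and 3 and Fe day 30 replicate 3 the day 5 difference was 0.23. Oligodendrocyte markers were tested for 13 of 14 genes, and their score ran from −0.28 to 0.18 in controls and from −0.34 to 0.65, −0.14 to 0.57 and −0.23 to 0.21 at days 5, 15 and 30. The highest score, 0.65, and the lowest, −0.34, were in Fe day 5 replicates 4 and 2, which also had the highest and lowest Tf of their group. The highest Tf of the 16 arrays, 5.55 in Fe day 30 replicate 3, stood beside an oligodendrocyte score of −0.0016 and a choroid plexus score of 7.13. In Fe day 15 replicate 4, with Tf at 5.17, the oligodendrocyte score was −0.14. The part of these cell types in the Tf values was not tested.

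Ferroportin, encoded by Slc40a1, is the exporter through which iron leaves cells. Its values were −2.42, −2.52, −2.89 and −2.61 in controls, −2.50, −2.34, −2.72 and −2.53 at day 5, −2.38, −2.58, −2.76 and −2.73 at day 15, and −2.55, −1.98, −2.61 and −2.84 at day 30. The 4 groups overlapped throughout, and 1 rat per Fe group exceeded the highest control. The differences were 0.087, −0.0035 and 0.12 (SE 0.16; adjusted p = 0.865, 0.996 and 0.851), with signs that depended on the setting. At day 5 it was −0.018 with normexp and −0.0053 without control replicate 3, at day 15 it was 0.058 and 0.026 without control replicates 1 and 2 and 0.047 and 0.035 without Fe day 15 replicates 3 and 4, and at day 30 it was −0.057 without replicate 2. A second, dimmer probe gave 0.12, 0.14 and 0.12.

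Cp encodes ceruloplasmin, a copper protein that oxidises iron as it leaves the cell, made in liver and, in brain, in astrocytes and other non-neuronal cells. It had the widest spread of the 9 genes. The 250 bases before a listed start on GRCr8 are shown because this gene had the largest difference. This window lies inside the RefSeq span of the gene, chr2:104368336-104427119, and not before it. Matches to TATAA or its reverse complement TTATA are in capitals.
Cp, chr2:104368420-104368669, plus strand: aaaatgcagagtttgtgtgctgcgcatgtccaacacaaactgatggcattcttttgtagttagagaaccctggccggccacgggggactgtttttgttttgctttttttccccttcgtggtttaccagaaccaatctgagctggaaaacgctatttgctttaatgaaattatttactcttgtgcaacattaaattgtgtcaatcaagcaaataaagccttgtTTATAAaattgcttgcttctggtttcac
It held 2 overlapping matches, with first bases at −28 and −27. Of all 33469 windows 24.0% held such a match, and of the 7 members with a window 3 did.

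Cp read −4.85, −5.23, −4.16 and −5.18 in controls. At day 5 it read −4.72, −1.64, −2.82 and −4.75, at day 15 −4.62, −5.51, −4.81 and −3.30, and at day 30 −4.80, −4.79, −2.24 and −4.92. In 4 Fe rats the value lay above the highest control, namely Fe day 5 replicates 2 and 3, Fe day 15 replicate 4 and Fe day 30 replicate 3. All 3 groups overlapped the controls. The differences were 1.37 at day 5 (SE 0.74, 2.59-fold, adjusted p = 0.501), 0.30 at day 15 (adjusted p = 0.909) and 0.67 at day 30 (adjusted p = 0.808).

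The 4 high Cp arrays were also the 4 with the highest meninges scores, at 4.53, 2.64, 0.81 and 3.16, against −0.086 to 0.53 in the other 12. All 11 measured meninges markers were higher than control at day 5, 10 at day 15 and 11 at day 30, with 0 called. Without the 3 arrays that held most choroid plexus and meninges signal the Cp difference was 0.12 at day 5 and 0.018 at day 30. At day 15 it was −0.12 without replicate 4. At day 5 it was 0.76 without replicate 2 alone and 1.15 without replicate 3 alone. Normexp background correction gave 0.52 at day 5 and a block for slide 1.04. A second Cp probe, above background on 13 of 16 arrays, gave 1.65, 0.29 and 0.92 with all arrays in. It was above background on 3 of 4 controls and on 4, 2 and 4 of 4 arrays at days 5, 15 and 30. It thus passed the filter through days 5 and 30 alone. Its values correlated with those of the first probe at 0.98 (Pearson, 16 arrays). The same 4 arrays were its highest, at −2.69, −3.59, −3.95 and −3.33, and its differences without them were not computed. The remaining Cp probe was above background on 0 of 4 controls and on 4, 1 and 1 of 4 arrays at days 5, 15 and 30.

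Ferritin stores iron in a shell of heavy and light chains, and the heavy chain, encoded by Fth1, oxidises iron as it enters. The brighter Fth1 probe read 5.94, 5.93, 5.94 and 5.90 in controls. It read 5.98, 5.86, 6.38 and 6.09 at day 5, 6.38, 6.09, 5.94 and 5.95 at day 15, and 6.31, 6.13, 5.80 and 6.01 at day 30. The controls lay within 0.039 of one another, while the Fe groups each spanned 0.44 to 0.52, with 9 of 12 Fe rats above all controls and 2 below. The differences were 0.15, 0.16 and 0.13 (SE 0.13; adjusted p = 0.672, 0.646 and 0.781). Without Fe day 5 replicate 3 the day 5 difference was 0.050, and with a block for slide it was 0.059. Without Fe day 15 replicate 1 the day 15 difference was 0.065. The day 30 difference was 0.054 without Fe day 30 replicate 1, 0.22 without replicate 3 and 0.024 with a block for slide.

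The dimmer Fth1 probe gave larger differences. It read 3.75, 3.97, 4.10 and 4.01 in controls, 4.59, 4.34, 4.99 and 4.53 at day 5, 5.04, 4.63, 4.07 and 4.56 at day 15, and 4.89, 4.79, 3.90 and 4.17 at day 30. All 4 day 5 rats were above every control, as were 10 of the 12 Fe rats, and 0 were below. The share of all genes with such counts over the 12 Fe rats was not computed for either Fth1 probe. The differences of the dimmer probe were 0.65 (SE 0.23, 1.57-fold, adjusted p = 0.473), 0.62 (adjusted p = 0.359) and 0.48 (adjusted p = 0.646). The mean of the 3 Fe groups was 0.58 above control (SE 0.19, unadjusted p = 0.00780, adjusted p = 0.327). On both probes the highest values were those of Fe day 5 replicate 3 and Fe day 15 replicate 1, and the probes disagreed in the size of the difference.

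**Figure D2:**
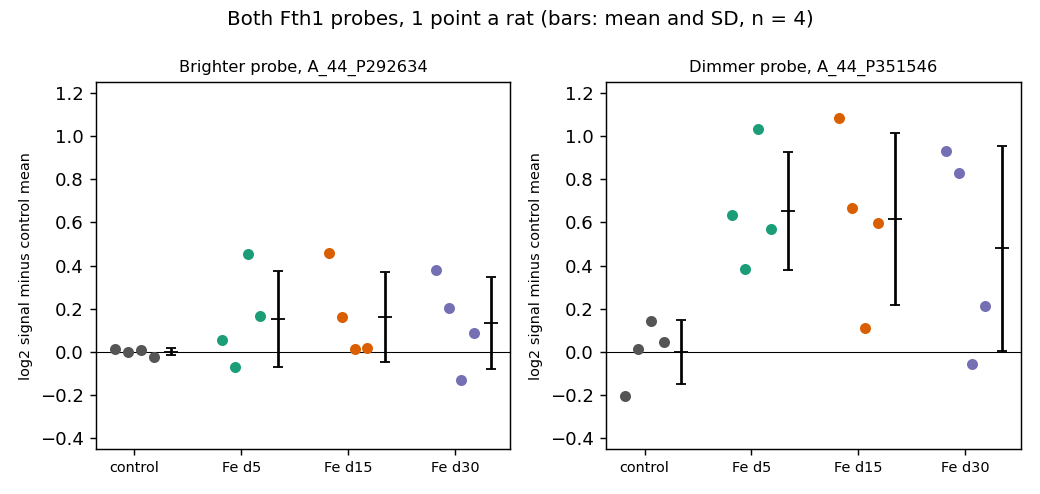
Log2 signal minus the probe's control mean for the brighter and the dimmer Fth1 probe, 1 point per rat, with group means and SD as bars (n = 4). On the dimmer probe all 4 day 5 rats lie above the 4 controls, and the group means are 0.65, 0.62 and 0.48, against 0.15, 0.16 and 0.13 on the brighter one.

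The light chain, encoded by Ftl1, helps the iron core to form. Ftl1 read 6.42, 6.37, 6.47 and 6.36 in controls, 6.32, 6.38, 6.28 and 6.41 at day 5, 6.42, 6.40, 6.47 and 6.86 at day 15, and 6.32, 6.34, 6.73 and 6.34 at day 30. Fe day 15 replicate 4 and Fe day 30 replicate 3 stood apart from the rest of their groups, and the other 10 Fe rats read 6.28 to 6.47. The differences were −0.057, 0.14 and 0.033 (SE 0.11; adjusted p = 0.867, 0.650 and 0.946). Those 2 arrays were the 2 with microglia scores near 1, and their blood cell scores were 1.48 and 1.79. Without them the differences at days 15 and 30 were 0.028 and −0.067. At day 5 the sign turned under quantile normalization (0.067) and normexp (0.0054). The other 3 Ftl1 probes gave −0.064 to 0.0031 at day 5, 0.094 to 0.17 at day 15 and 0.041 to 0.052 at day 30, with all arrays in. On each of these probes the 2 highest values were also in Fe day 15 replicate 4 and Fe day 30 replicate 3.

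Aco1 and Ireb2 encode the iron regulatory proteins. The Aco1 product is also an aconitase when it holds an iron-sulphur cluster, and the Ireb2 product is broken down when iron is plentiful. Aco1 read 2.27, 2.21, 2.24 and 2.26 in controls, 2.29, 2.38, 2.29 and 2.40 at day 5, 2.36, 2.33, 2.34 and 2.32 at day 15, and 2.23, 2.24, 2.41 and 2.30 at day 30. All rats of days 5 and 15 were above the highest control. The differences were 0.094, 0.094 and 0.050 (SE 0.057; adjusted p = 0.543, 0.538 and 0.811), which is 1.07-fold at days 5 and 15. Without Fe day 30 replicate 3 the day 30 difference was 0.012.

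Ireb2 was read by a dim probe, at −5.21, −5.12, −5.22 and −5.16 in controls. It read −4.82, −4.97, −5.01 and −4.97 at day 5, −5.15, −5.36, −5.09 and −4.94 at day 15, and −5.15, −5.02, −4.87 and −5.50 at day 30. The 4 rats of day 5 were above all controls, and later values spread to both sides. The differences were 0.23 (SE 0.12, unadjusted p = 0.0685, adjusted p = 0.489), 0.042 and 0.042. With normexp background correction the day 5 difference was −0.12, of the opposite sign. Those at days 15 and 30 also turned, to −0.048 and −0.050 with normexp and to −0.015 and −0.042 with quantile normalization. They were −0.022 at day 15 without replicate 4 and −0.047 at day 30 without replicate 3, the 2 arrays with microglia scores near 1.

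Hmox1 encodes haem oxygenase 1, the inducible enzyme that opens the haem ring and sets its iron free, and it is a common marker of oxidative stress in microglia and macrophages. Its probe was printed in 10 spots per array, whose SD within an array had a median of 0.051. Hmox1 read −1.07, −1.25, −0.93 and −1.29 in controls. It read −1.26, −1.10, −1.05 and −1.45 at day 5, −0.98, −0.75, −0.91 and −0.36 at day 15, and −1.29, −1.52, −0.35 and −0.94 at day 30. At day 15, 3 of 4 rats were above the highest control, and at day 30 1 was above and 2 were below.

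The Hmox1 differences were −0.083 at day 5 (adjusted p = 0.905), 0.38 at day 15 (SE 0.21, 1.30-fold, adjusted p = 0.498) and 0.11 at day 30 (adjusted p = 0.900). The group means in order were −1.22 at day 5, −1.13 in control, −1.03 at day 30 and −0.75 at day 15, with SDs of 0.18, 0.17, 0.51 and 0.28, and neighbours did not differ beyond their spread. Day 15 and day 5 did not overlap, which in this direction was so for 2.07% of all genes, and differed by 0.46 (unadjusted p = 0.0447, adjusted p = 0.678). At an unadjusted p under 0.05, 4.05% of all genes were higher in that comparison.

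The 2 highest Hmox1 values, −0.35 and −0.36, were in the 2 arrays with the highest microglia scores. These arrays, Fe day 30 replicate 3 and Fe day 15 replicate 4, also had blood cell scores of 1.79 and 1.48. The first of them had the highest choroid plexus score, 7.13, and the part of each cell type was not tested. Of the 15 measured microglia markers 14 were above control at day 15 and 14 at day 30, with 0 called, and in the other 3 arrays of day 15 the score was −0.24 to −0.16. Without the 2 arrays the Hmox1 difference was 0.25 at day 15 and −0.12 at day 30, and that between days 15 and 5 was 0.33. Without Fe day 5 replicates 2 and 3 and Fe day 30 replicate 3 the day 5 difference was −0.22. On slides with a control, the 3 rats of day 15 read 0.27, 0.18 and 0.38 above it.

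**Figure D3:**
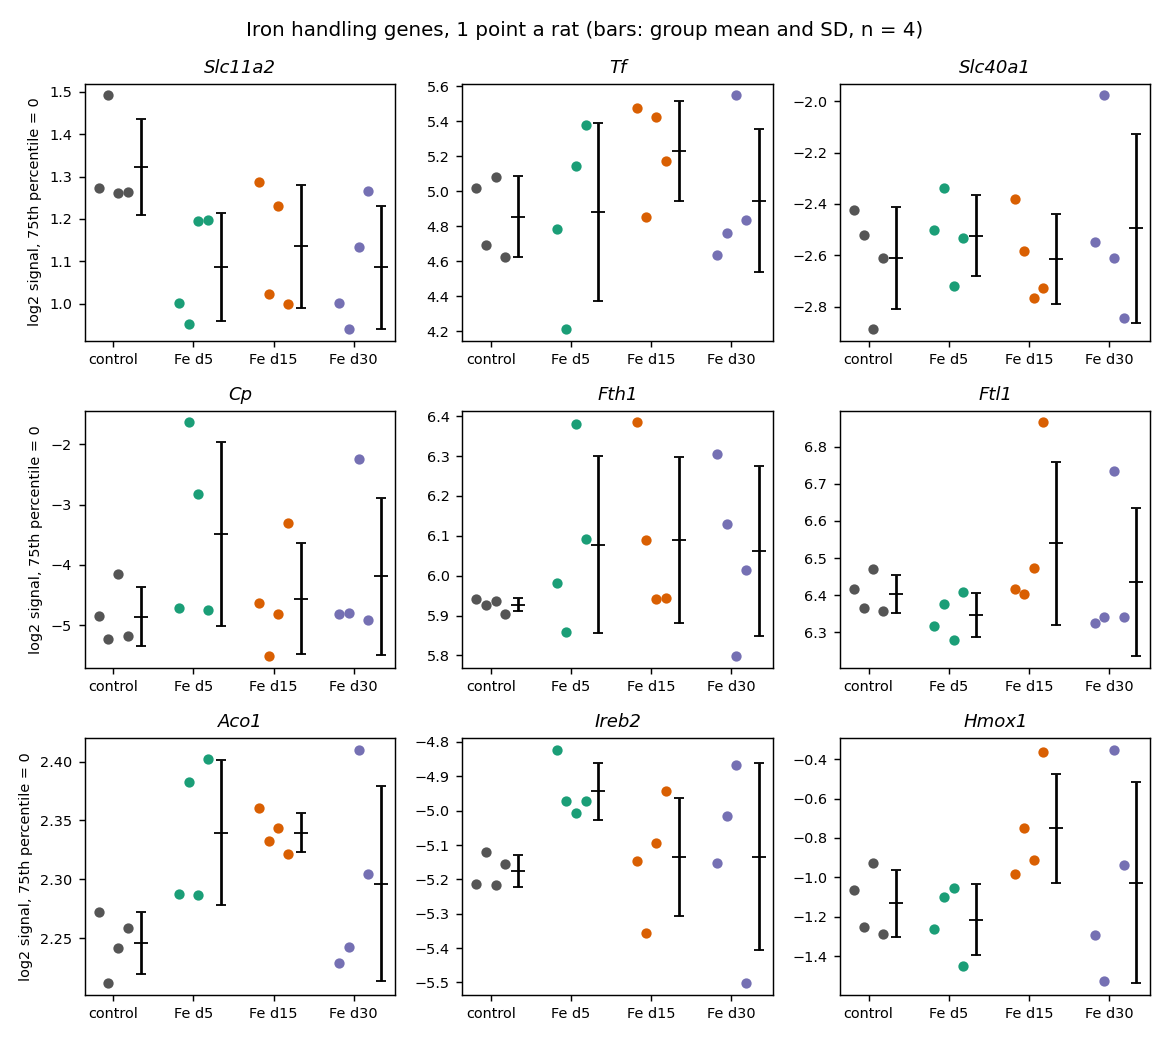
Log2 signal relative to the 75th percentile of the array for the 9 genes, 1 point per rat in replicate order, with group mean and SD as bars (n = 4) and a separate axis range per gene. The day 5 values of Slc11a2 lie below the 4 controls, those of Aco1 and Ireb2 above them, and single high rats stand out for Cp, Ftl1 and Hmox1.

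**Figure D4:**
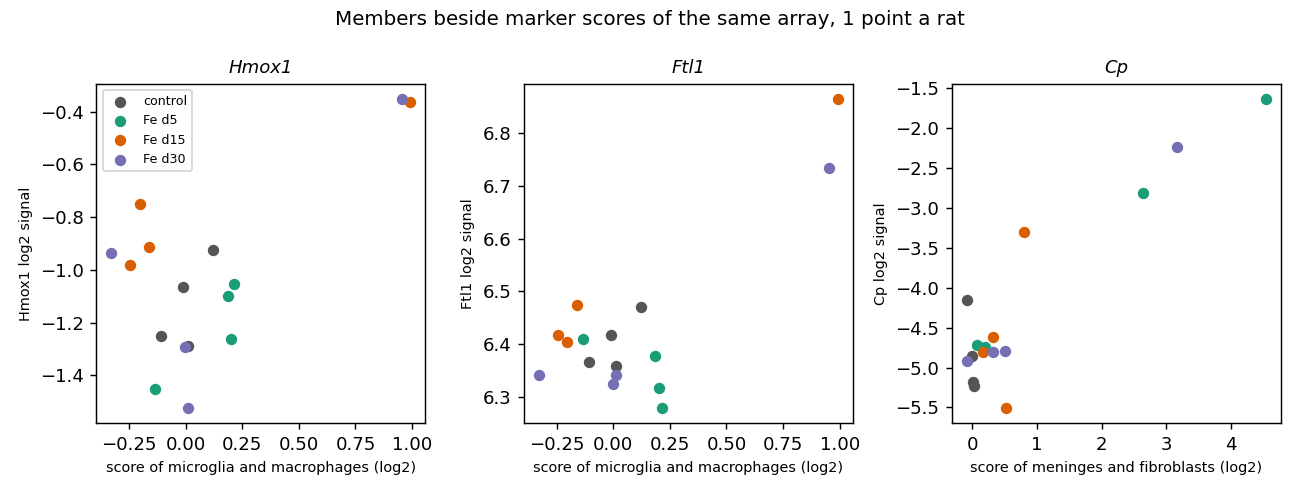
Log2 signals of Hmox1 and Ftl1 against the microglia and macrophage score, and of Cp against the meninges and fibroblast score, 1 point per rat, coloured by group. The 2 arrays with microglia scores of 0.99 and 0.95 have the highest Hmox1 and Ftl1 signals, and the 4 arrays with the highest meninges scores have the 4 highest Cp signals.

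Further genes of iron and haem handling were taken from lists by role. Of 78 listed genes 59 were tested, and 0 were called on any Fe day. Higher and lower than control were 27 and 32 at day 5, 30 and 29 at day 15, and 27 and 32 at day 30, with median differences of −0.013, 0.016 and −0.013. The share above 0 was 45.8%, 50.8% and 45.8%, close to that of all genes given above. At an unadjusted p under 0.05, 2 were higher and 3 lower at day 5, 3 and 0 at day 15, and 3 and 0 at day 30. The day 15 count includes Tfr2, whose probe passed the filter on dim probes through day 15 alone. Of all genes, 4.06% were higher and 6.28% lower at day 5, 5.17% and 6.32% at day 15, and 3.12% and 4.65% at day 30. By role, the counts above control at days 5, 15 and 30 were 5, 6 and 7 of 7 for systemic iron control, the hepcidin pathway. In that list Hamp, Tfr2 and Hfe were dim, with control means of −5.04, −5.96 and −5.72. The day 30 difference of Smad7 was 0.0066, and the SEs of Bmp6 and Smad6 were 0.50 and 0.34. The counts above control were 7, 9 and 7 of 14 for uptake, reduction and transport, and 2, 3 and 2 of 7 for storage and intracellular control. Iron-sulphur cluster assembly had 5, 5 and 3 of 12, haem synthesis 5, 4 and 5 of 11, and haem uptake, export and breakdown 3, 3 and 3 of 8.

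Among these genes Heph had the lowest p at day 5. It encodes hephaestin, a membrane ferroxidase related to ceruloplasmin. Heph read −2.76, −2.92, −2.85 and −2.92 in controls, −1.60, −1.11, −2.18 and −1.65 at day 5, −1.65, −2.53, −2.63 and −1.53 at day 15, and −2.42, −1.89, −1.53 and −2.79 at day 30. All 4 rats of day 5 and all 4 of day 15 were above the highest control, and 3 of 4 at day 30. The highest values of days 15 and 30 were in Fe day 15 replicate 4 and Fe day 30 replicate 3. Those arrays had microglia scores of 0.99 and 0.95, and the part of that cell type in the Heph values was not tested. The differences were 1.23 at day 5 (SE 0.30, 2.34-fold, unadjusted p = 0.00112, adjusted p = 0.473), 0.78 at day 15 (adjusted p = 0.369) and 0.71 at day 30 (adjusted p = 0.633). Without the 3 arrays that held most choroid plexus and meninges signal the day 5 difference was 1.24, and with a block for slide it was 0.99. Normexp gave 0.82 at day 5 and 0.44 at day 30.

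Abcg2, an efflux pump of vessel walls that also exports haem precursors, had the lowest p at days 15 and 30. It read −2.69, −1.52, −1.54 and −1.60 in controls, −1.43, −1.15, −1.73 and −1.85 at day 5, −0.76, −1.13, −0.53 and −1.26 at day 15, and −1.08, −0.58, −1.28 and −1.26 at day 30. Days 15 and 30 lay wholly above the controls, and day 5 overlapped them. The differences were 0.30 at day 5 (adjusted p = 0.683), 0.92 at day 15 (SE 0.26, adjusted p = 0.264) and 0.79 at day 30 (adjusted p = 0.569). Control replicate 1 lay below the other controls, and without it the differences were 0.64 and 0.51. Endothelial markers were above control for 4 of 9 genes at day 15 and 9 of 9 at day 30, and their part in the Abcg2 values was not tested.

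The other genes that the rule named did not pass the test either. At day 5 they were the haem-binding gene Hebp2 at 0.64 (SE 0.28), Por, which feeds electrons to haem oxygenase, at −0.37 (SE 0.14), and the haemoglobin-binding gene Hp at −0.41 (SE 0.17). With a block for slide Hebp2 was at 0.24 and Por at −0.15. At day 15 they were Tfr2, a transferrin receptor read by a probe above background on 13 of 16 arrays, at 0.63 (SE 0.24), the metal transporter gene Slc39a8 at −0.22 (SE 0.11), and the ferrireductase gene Steap3 at −0.27 (SE 0.14). The Tfr2 probe was above background on 4 of 4 arrays at day 15 and on 3 of 4 in each other group. It passed the filter through day 15 alone, the group in which it is named here as higher. With normexp the Tfr2 difference was 0.052 and that of Steap3 −0.17. Without control replicate 3 Tfr2 was at 0.40, and without Fe day 15 replicate 2 Steap3 was at −0.18. At day 30 they were Cisd1, an iron-sulphur protein of the outer mitochondrial membrane, at −0.11 (SE 0.062) and Por at −0.18. With a block for slide they were at −0.052 and −0.082.

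The genes whose pattern over the 16 arrays was most like that of a member were found by the root mean square distance between log2 values, each minus its own control mean. For Slc11a2 they were Zfp532 at 0.070, Eloa at 0.077 and Kdm6b at 0.083, against a median distance of 0.29 over all genes. Those for Hmox1 were Smim3 at 0.15, Oplah at 0.17 and Hexa at 0.18, against a median of 0.42. Those for Ireb2 were Cxxc5 at 0.12, Fzd3 at 0.12 and Prorsd1 at 0.12, against a median of 0.29. The 3 members were those of lowest F-test p, which was 0.0901 for Slc11a2, 0.186 for Hmox1 and 0.243 for Ireb2 before adjustment.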

How the data were processed

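RNA from the right hippocampus of 16 rats was hybridised to Agilent 1-colour arrays, 1 per rat and 4 per group, and read with Agilent Feature Extraction 9.5 per the submitters' processing notes. The deposited processed signal is, per the file headers, a background-subtracted intensity on a linear scale, and the deposited series table was the same intensity (100% of entries equal within a relative 1e-06), with column medians of 65.1 to 108. The deposited median spot and background intensity entered only the normexp alternative (offset 50).

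Of 45018 spots per array 1639 were controls. Spots marked non-uniform or outlying were left out, the spots of a probe averaged, and log2 signals set relative to the 75th percentile of the array. A probe was kept if every array of some group had it well above background (30548 of 41012), and 1 probe was used per symbol, from RefSeq accessions and a RefSeq table on GRCr8 used for names and promoter windows, or per accession without a symbol. This gave 26564 genes, 9588 with a symbol. The group means came from a 1-way limma model (limma 3.58.1, R 4.3.3) with 12 residual degrees of freedom, and p, two-sided, was adjusted by Benjamini and Hochberg. The median residual SD was 0.19 and the median SE of a group difference 0.13. Precision is limited by the number of arrays. The fit was tested on simulated data.

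All 10 members are named. Of the other iron genes, the 2 of lowest p in each direction were named per Fe day, and for the 3 members of lowest F-test p the 3 genes most alike. The members and lists were chosen with earlier results of these data known. Alternatives covered scaling, background correction, the filter, the probe, slide, replicate number, array weights, prior variance, the groups fitted and each array left out. The deviations of rats with the same replicate number correlated at −0.41 to 0.39, not all above 0, so the number was not taken as a pairing. All arrays were scanned on the same day, on 7 slides.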

Additional observations from a re-analysis of the deposited data

Results flagged for a closer look

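In groups of 4 rats, a rat was singled out where its gap to the nearest of the others took up more of the group's range than Dixon's 95% critical value, which chance alone passes in about 1 in 20 groups. Of 36 groups (9 genes in 4 groups) 4 met this. Ftl1 stood at 6.86 in Fe day 15 replicate 4, where the nearest value was 6.47, and at 6.73 in Fe day 30 replicate 3, where the nearest was 6.34. Cp stood at −2.24 in Fe day 30 replicate 3, where the nearest was −4.79. Slc11a2 stood at 1.49 in control replicate 2, where the nearest was 1.27.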

How the results depend on the processing

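The count of iron genes called stayed at 0 in every comparison under all alternatives that were run, about 31 for each, while limma with array weights called 182 of all genes at day 15 and 25 at day 30, against 0 and 2. Among the differences of single genes, 11 moved by more than the spread between replicates. Of these, Slc11a2 at day 5 was −0.085 with a block for slide, Aco1 at day 5 0.15 and Por −0.15. Cp at day 5 was 0.12 without the 3 arrays that held most choroid plexus and meninges signal, Ireb2 at day 5 −0.12 and Tfr2 at day 15 0.052 with normexp, and the mean of both Fth1 probes was 0.40 at day 5 and 0.39 at day 15. The causes were not tested. Leaving out 1 array at a time gave a Slc11a2 difference at day 5 of −0.27 to −0.18, a Hmox1 difference at day 15 of 0.25 to 0.46 and a Cp difference at day 5 of 0.76 to 1.80. The setting without the 2 arrays high in microglia markers was chosen after seeing the data. With the replicate number as a block the Slc11a2 difference at day 5 remained −0.24 (SE 0.11, adjusted p = 0.536) and 0 iron genes were called. The same numbers correlated at −0.41 to 0.39 in their deviations, and 8 of 16 arrays matched their own number best. The count expected by chance was not computed, and the labels do not say whether the numbers were pairs. The signal of Ireb2, Cp and Tfr2 probes lay close to background, which limits these values.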
